A study of Mus musculus with 9 samples.

Results

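Genes of the Bcl2 family and of necroptosis were followed in the livers of mice given an overdose of acetaminophen (APAP), with or without adipose-derived mesenchymal stem cells (AMSCs). The 10 genes were taken by symbol from a table of 54532 genes. They are the BH3-only genes Bcl2l11, Bbc3, Bid and Pmaip1, the pro-survival genes Mcl1 and Bcl2l1, the effectors Bax and Bak1, and the necroptosis genes Ripk3 and Mlkl. All 9 mice were young males of the C57BL/6 strain, 3 to a group. The NC group held normal control mice. The APAP group received 500 mg/kg APAP intraperitoneally after an overnight fast, and the AMSC group received the same dose of APAP followed at once by AMSCs through the tail vein. Livers of both treated groups were taken 6 h after APAP. The AMSCs were grown from inguinal adipose tissue of C57BL/6 mice. Whether the NC mice had fasted is not given in the sources used here, so APAP and fasting cannot be told apart against the NC group. The values come from whole liver, in which fewer cells of a type and less RNA per cell cannot be told apart.

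Mitochondrial apoptosis is set by the balance within the Bcl2 family. BH3-only proteins report stress, pro-survival proteins hold them and the effectors in check, and the effectors Bax and Bak1 open the outer mitochondrial membrane when that check fails. Necroptosis is a separate, caspase-independent death in which the kinase RIPK3 phosphorylates MLKL, which then breaks the plasma membrane. Cell death in APAP overdose is mainly necrosis of pericentral hepatocytes that starts from the mitochondria, where translocated Bax and active JNK are known to take part. Many members are controlled after transcription, by phosphorylation, cleavage or rapid turnover, so transcript levels do not give protein activity.

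Each NC library held 14920463 to 15444087 reads on genes, each APAP library 13640978 to 14167230 and each AMSC library 13418921 to 16210930. Expression is given as FPKM, which is scaled to gene length and library size, and 1 read on a gene of 1 kilobase was worth 0.0578 to 0.0807 FPKM. Fold changes are differences of log2(FPKM + 1), which understate the change of low genes. Tests were run with limma on the 9699 genes that averaged 1 FPKM or more. A gene was called a DEG when its adjusted p did not exceed 0.05 and its log2 fold change was 1 or more, up or down. Of the members, 8 passed this filter. Mlkl passed narrowly, with a mean of 1.01 FPKM over the 9 libraries, and Pmaip1 and Ripk3 did not pass. Mlkl averaged 1.42 FPKM in the APAP group and below 1 FPKM in the other groups, so it passed through the APAP group. Bcl2l11 averaged 0.535 FPKM in the NC group and passed through the APAP and AMSC groups, at 2.47 and 2.31 FPKM. For both genes the filter is not independent of the differences given below. The 8 hepatocyte markers were all present and summed to 42389 to 65928 FPKM per library, as the liver label implies. NC replicate 3 carries another date in its label than the other 8 libraries, and the counts of members called below were also obtained without it. The comparisons share libraries with each other, so their values are set side by side and not counted as independent.

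Promoter sequence is shown for Bcl2l11, Bbc3 and Mcl1, 3 of the 4 members that were higher in both treated groups. The fourth, Bcl2l1, is not shown; it has 3 windows, of which 1 holds an NF-kB site and none the FOXO letters. RefSeq start sites on GRCm38.p6 gave 14 promoter windows for 9 of the 10 members, out of 32851 windows of the same length (250 bases before and 50 after a start). The sequences below are the 250 bases before 1 start of each gene, 5′ to 3′ on the gene's strand. Capitals mark matches to the motifs searched, and position -1 is the base just before the start. The window of Bcl2l11 (chr2:128125788-128126037, plus strand) holds the FOXO letters GTAAACA at -227 to -221 and an inverted CCAAT box at -57 to -53. The window of Bbc3 (chr7:16310011-16310260, plus strand, before an internal start and in an intron of longer transcripts) holds the FOXO letters on the other strand at -167 to -161. The window of Mcl1 (chr3:95658471-95658720, plus strand) holds no match. For Bcl2l11 and Bbc3 the window with the FOXO letters was chosen for display. The other window of Bcl2l11 and the other 2 windows of Bbc3 do not hold these letters.
Bcl2l11: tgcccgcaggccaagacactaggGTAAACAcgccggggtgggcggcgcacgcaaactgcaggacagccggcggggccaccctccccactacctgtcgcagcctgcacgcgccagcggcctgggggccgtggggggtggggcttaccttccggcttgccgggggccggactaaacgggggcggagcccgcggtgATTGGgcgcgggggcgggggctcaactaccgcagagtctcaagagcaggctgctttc
Bbc3: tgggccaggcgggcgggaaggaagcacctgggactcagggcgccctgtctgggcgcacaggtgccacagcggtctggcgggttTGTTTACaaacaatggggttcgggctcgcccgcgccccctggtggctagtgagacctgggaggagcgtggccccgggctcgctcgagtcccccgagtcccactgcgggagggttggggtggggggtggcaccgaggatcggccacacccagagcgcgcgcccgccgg
Mcl1: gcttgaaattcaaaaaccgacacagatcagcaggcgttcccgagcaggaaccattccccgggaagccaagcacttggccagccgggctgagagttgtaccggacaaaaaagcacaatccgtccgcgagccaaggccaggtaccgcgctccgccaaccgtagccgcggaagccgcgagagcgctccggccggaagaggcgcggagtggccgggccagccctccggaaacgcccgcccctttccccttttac

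Both strands were searched for AP-1 (TGANTCA), CRE (TGACGTCA), FOXO (GTAAACA), STAT (TTCNNNGAA), the ATF4 and C/EBP composite (TGATGCAAT), the E-box (CACGTG), the CCAAT box, the TATA box (TATAAA), and by name for p53, SRF CArG and NF-kB sites. The FOXO letters were in 2 of the 14 member windows and in 3.65% of all windows. The E-box was in 3 member windows (Bax, Bbc3 and Ripk3) and 7.15% of all, the CCAAT box in 3 (2 of Bcl2l11 and 1 of Bbc3) and 37.4%, the NF-kB site in 2 (Bbc3 and Bcl2l1) and 8.46%, and the p53 site, searched as a single decamer, in 1 (Bax) and 8.36%. No member window held the AP-1, CRE, STAT, composite, TATAAA or CArG letters, which were in 7.81%, 1.79%, 8.3%, 0.192%, 13.6% and 1.63% of all windows. These matches describe letters and are not sites of binding.

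**Figure D1:**
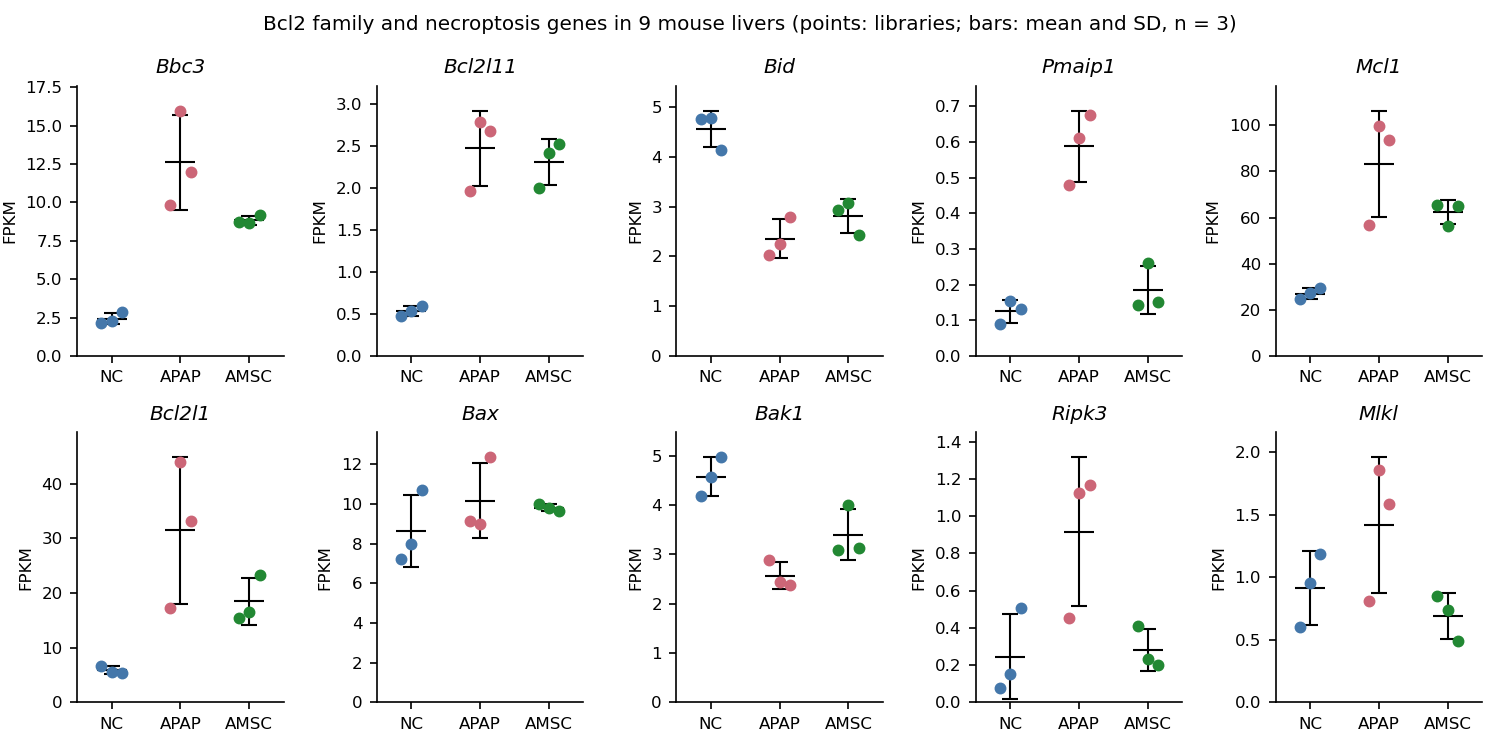
FPKM of each member (vertical axis, linear from 0, scaled per gene) in the 3 libraries of each group, with the mean and SD. Bbc3, Bcl2l11, Mcl1 and Bcl2l1 lie above the NC libraries in all 6 treated libraries, Bid and Bak1 below them in all 6, and the 3 APAP libraries lie above all others for Pmaip1.

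Among the members, the level per length in normal liver ran from Mcl1 (27.0 ± 2.39 FPKM, SD, n = 3) through Bax (8.64 ± 1.82), Bcl2l1 (5.90 ± 0.72), Bak1 (4.57 ± 0.39), Bid (4.56 ± 0.37), Bbc3 (2.43 ± 0.37), Mlkl (0.913 ± 0.296), Bcl2l11 (0.535 ± 0.062) and Ripk3 (0.246 ± 0.229) to Pmaip1 (0.125 ± 0.032). Neighbours in this order that overlapped in the NC libraries were Bak1 with Bid, Bcl2l11 with Ripk3, and Ripk3 with Pmaip1. In the APAP group the order was Mcl1 (83.3 ± 23.1 FPKM), Bcl2l1 (31.5 ± 13.4), Bbc3 (12.6 ± 3.11), Bax (10.2 ± 1.91), Bak1 (2.57 ± 0.27), Bcl2l11 (2.47 ± 0.45), Bid (2.36 ± 0.39), Mlkl (1.42 ± 0.54), Ripk3 (0.917 ± 0.400) and Pmaip1 (0.588 ± 0.0998). There, overlaps were seen between Bbc3 and Bax, among Bak1, Bcl2l11 and Bid, between Mlkl and Ripk3, and between Ripk3 and Pmaip1. In the AMSC group the order was Mcl1 (62.4 ± 5.18 FPKM), Bcl2l1 (18.5 ± 4.30), Bax (9.81 ± 0.18), Bbc3 (8.85 ± 0.29), Bak1 (3.40 ± 0.51), Bid (2.81 ± 0.34), Bcl2l11 (2.31 ± 0.27), Mlkl (0.691 ± 0.182), Ripk3 (0.283 ± 0.113) and Pmaip1 (0.185 ± 0.066), with overlap between Bid and Bcl2l11 and between Ripk3 and Pmaip1. Mcl1 was thus the most abundant member in each group. Bcl2l1, Bbc3 and Bcl2l11 stood higher in the order after APAP than in normal liver, though Bcl2l11 overlapped with Bid there. Bbc3 had rank 6997 of the 9699 genes by mean FPKM in the NC group and rank 2648 in the APAP group.

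The comparison of the APAP group with the NC group shows which members differed after the overdose, with fasting not told apart as stated above. Both pro-survival members and the BH3-only genes Bcl2l11 and Bbc3 rose as DEGs, Bid and Bak1 fell by less than the fold set for DEGs, and Bax and Mlkl did not pass the test. Thus 4 of the 8 tested members were DEGs with higher expression, against 5.09% of all genes tested, and no member was a DEG with lower expression, against 2.8%. Of these 4, Bcl2l11 was tested only because of its level in the treated groups, so its call is not independent of the filter. The members were also chosen with earlier results of these data known, so the counts describe these genes only. A lower level past the adjusted p alone was seen for 2 members and for 13.1% of all genes. The groups did not overlap for 6 of the 8 tested members, and for 43.2% of all genes. The median log2 fold change of the 8 members was 0.75, and that of all genes tested was -0.00.

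Bbc3 encodes PUMA, a BH3-only protein that binds all pro-survival members and is a classical target of p53. Its FPKM was 2.17, 2.26 and 2.84 in NC replicates 1 to 3 and 9.86, 16.0 and 12.0 in APAP replicates 1 to 3. Every APAP library lay above every NC library, and the mean was 5.20 times as high. The log2 fold change was 1.97 (SE 0.18, limma adjusted p = 0.000415).

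Bcl2l11 encodes BIM, a BH3-only protein induced by FOXO factors and by JNK signalling. It was at 0.470, 0.540 and 0.593 FPKM in the NC libraries and at 1.96, 2.78 and 2.68 FPKM in the APAP libraries. The groups did not overlap and the means stood in a ratio of 4.63. The log2 fold change was 1.17 (SE 0.14, limma adjusted p = 0.00133). Since Bcl2l11 is low in normal liver, the pseudocount weighs on this value, and voom on the recovered reads gave 2.19.

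Bid is cut by caspase-8 and carries death-receptor signals to the mitochondria. It was at 4.76, 4.79 and 4.14 FPKM in the NC libraries and at 2.04, 2.25 and 2.79 FPKM in the APAP libraries. All 3 APAP libraries were below the NC libraries, with a ratio of means of 0.517. The log2 fold change was -0.73 (SE 0.13, limma adjusted p = 0.00627), past the test and short of the fold of a DEG. Bid shares 628 exonic bases with Bcl2l13 on the other strand, which was at 2.99 to 6.49 FPKM, and whether the counting used strand is not given in the sources used here.

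Pmaip1 encodes NOXA, which binds mainly MCL1. It held only 4, 7 and 6 reads in the NC libraries and 17, 20 and 24 reads in the APAP libraries, or 0.0906, 0.153 and 0.132 FPKM against 0.479, 0.610 and 0.675 FPKM. The 3 APAP libraries were all above the NC libraries, with a ratio of means of 4.70. An exact two-sided permutation test gave p = 0.1, the smallest p that 3 against 3 libraries allow. With all genes above 0 in the fit, the limma adjusted p was 0.0176 at a log2 fold change of 0.50, and voom on genes with at least 10 reads gave 2.15 (SE 0.47, adjusted p = 0.00975).

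Mcl1 encodes a short-lived pro-survival protein on which hepatocytes are known to depend. Its FPKM was 24.5, 27.2 and 29.3 in the NC libraries and 56.9, 99.5 and 93.5 in the APAP libraries. Each APAP library was above each NC library, and APAP replicate 1 was the lowest of its group. The mean was 3.08 times as high, at a log2 fold change of 1.55 (SE 0.22, limma adjusted p = 0.00255).

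Bcl2l1 encodes BCL-XL, the other pro-survival protein that hepatocytes rely on, and its shorter splice form BCL-XS cannot be told from it in values per gene. It was at 6.72, 5.60 and 5.38 FPKM in the NC libraries and at 17.3, 44.0 and 33.2 FPKM in the APAP libraries. The groups did not overlap, and APAP replicate 1 was again the lowest treated library. The mean was 5.34 times as high, the largest ratio among the 10 members, and the log2 fold change was 2.14 (SE 0.30, limma adjusted p = 0.00263). Red cell precursors are known to express Bcl2l1. The 5 erythroid markers summed to 134.5 to 254.0 FPKM per NC library, 305.9 to 1406 per APAP library and 183 to 312 per AMSC library. Of the 5, 4 were higher DEGs in APAP against NC, none of which stayed past the adjusted p without NC replicate 1 or without NC replicate 2, and none was at 0 in all libraries. The APAP library with the lowest erythroid sum, replicate 2, had the highest Bcl2l1, and the part of these markers in the result was not tested.

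The effectors moved less. Bax was at 7.23, 7.999 and 10.7 FPKM in the NC libraries and at 9.13, 9.01 and 12.4 FPKM in the APAP libraries. The groups overlapped, and the log2 fold change of 0.22 (95% confidence interval -0.20 to 0.63, limma adjusted p = 0.413) did not pass the test. Scaled to library totals in place of the authors' scaling, it was -0.02.

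Bak1 was at 4.18, 4.56 and 4.97 FPKM in the NC libraries and at 2.88, 2.45 and 2.38 FPKM in the APAP libraries. All APAP libraries were below all NC libraries, with a ratio of means of 0.562 and a log2 fold change of -0.64 (SE 0.12, limma adjusted p = 0.00760). Bak1 shares 437 exonic bases with Ggnbp1 on the other strand, which was at 0.709 to 1.93 FPKM.

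The necroptosis genes were low in all libraries. Ripk3, the kinase of the necrosome, held 3, 6 and 20 reads in the NC libraries (0.0784, 0.151 and 0.507 FPKM) and 14, 32 and 36 reads in the APAP libraries (0.455, 1.13 and 1.17 FPKM). NC replicate 3 was above APAP replicate 1, so the groups overlapped (exact two-sided permutation test, p = 0.2). The limma adjusted p was 0.184 with all genes above 0 in the fit, while voom on genes with at least 10 reads gave 2.10 (SE 0.66, adjusted p = 0.0466), so the call depended on the test. Mlkl, the substrate of RIPK3, was at 0.599, 0.954 and 1.19 FPKM in the NC libraries and at 0.809, 1.86 and 1.58 FPKM in the APAP libraries. These overlapped, and the log2 fold change of 0.32 (95% confidence interval -0.15 to 0.80, limma adjusted p = 0.286) did not pass the test. It was 0.52 (adjusted p = 0.0635) without APAP replicate 1, 0.19 without APAP replicate 2 and 0.20 without NC replicate 1.

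Leukocytes express both necroptosis genes, so the markers of such cells are given beside them. The sum of 9 Kupffer cell and macrophage markers was 88.0, 77.8 and 162 FPKM in NC replicates 1 to 3 and 223, 109 and 298 FPKM in APAP replicates 1 to 3. In the AMSC group it was 99.96, 65.9 and 64.3 FPKM in replicates 2 to 4. The NC library with the highest sum was also the NC library with the highest Ripk3 and Mlkl. Within the APAP group the order differed, since replicate 2 had the lowest macrophage sum and the highest Mlkl. All 9 markers were tested and none was at 0 in all libraries. Of these, 2 were higher DEGs in APAP against NC and 1 (Cd68) was a lower DEG in AMSC against APAP, a call that was lost without APAP replicate 3, AMSC replicate 2 or AMSC replicate 4. Of the higher DEGs, Cd68 kept its call whichever library was left out, and Timd4 lost it without NC replicate 1 or 2 or APAP replicate 1 or 3. The median log2 fold change over these markers was 0.95 in the former comparison and -1.30 in the latter. The 8 neutrophil markers summed to 0.330 to 1.94 FPKM per NC library, 8.58 to 36.4 per APAP library and 4.55 to 6.33 per AMSC library. Of these 8, 3 were tested, and all 3 were higher DEGs in APAP against NC. All 3 averaged below 1 FPKM in the NC group and passed the filter only through the treated groups. The 8 markers of T, NK and B cells summed to at most 3.05 FPKM in any library, and none passed the filter. The part of these cells in the values of Ripk3 and Mlkl was not tested.

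**Figure D2:**
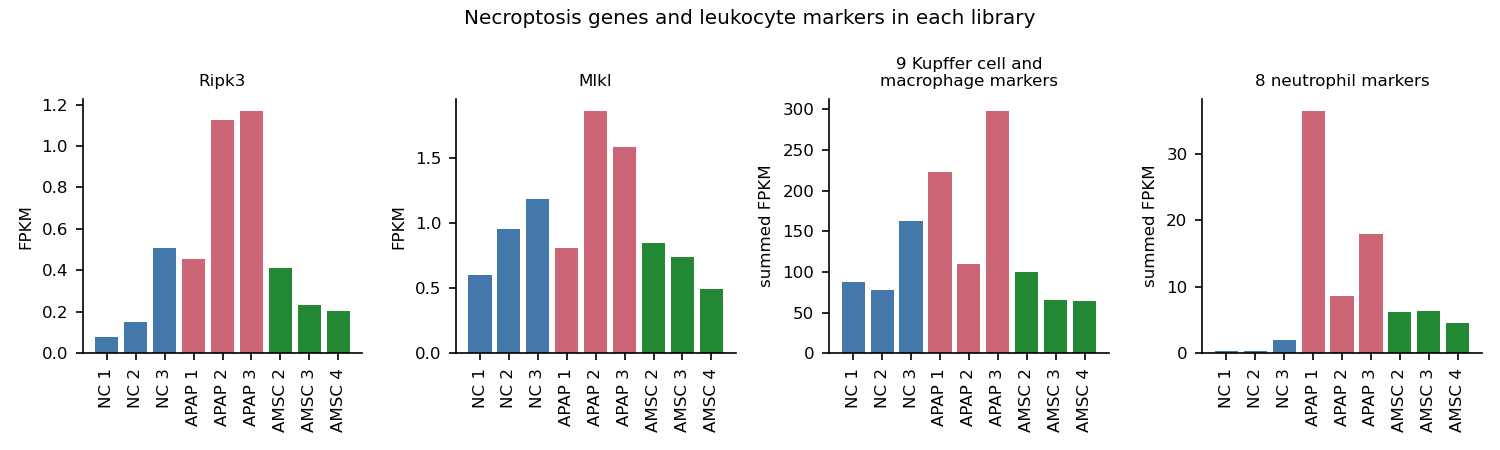
FPKM of Ripk3 and Mlkl and the summed FPKM of 9 macrophage and 8 neutrophil markers in each library (bars from 0, colours for the groups). APAP replicates 2 and 3 are highest for both necroptosis genes, at 1.13 and 1.17 FPKM for Ripk3, while APAP replicate 1 has the highest neutrophil sum.

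The comparison of the AMSC group with the APAP group asks whether the members differ when AMSCs were given. None of the 8 tested members passed the adjusted p in limma, against 3.78% of all genes tested, and none was a DEG, against 1.96%. At an unadjusted p under 0.05 there were 2 members, Bbc3 and Mlkl, against 20.9% of all genes, and voom on the recovered reads called no member either. Of the tested members, 6 had lower values in the AMSC group and 2 had higher values, and the groups did not overlap for 2 (Bbc3 lower and Bak1 higher), against 27% of all genes. The median log2 fold change was -0.22 over the members and 0.01 over all genes tested.

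Bbc3 was at 8.71, 8.66 and 9.18 FPKM in AMSC replicates 2 to 4. These libraries lay closely together and just below the lowest APAP library, which was at 9.86 FPKM. The log2 fold change was -0.44 (95% confidence interval -0.84 to -0.05, limma adjusted p = 0.198), and it was -0.27 without APAP replicate 2. Mcl1 was at 65.6, 56.4 and 65.1 FPKM, which overlapped with APAP replicate 1 (log2 fold change -0.37, interval -0.88 to 0.13, limma adjusted p = 0.383). Without APAP replicate 1 the fold change of Mcl1 was -0.62 (limma adjusted p = 0.0504), and without APAP replicate 2 it was -0.23. Bcl2l1 was at 15.5, 16.5 and 23.4 FPKM and likewise overlapped with APAP replicate 1, the low library of its group.

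The log2 fold change of Bcl2l1 was -0.67 (95% confidence interval -1.41 to 0.08, limma adjusted p = 0.289). Without APAP replicate 1, Bcl2l1 became a DEG at -1.03 (limma adjusted p = 0.0490), and this was the only member called when any library was left out. Leaving out APAP replicate 2, the highest library, gave -0.38. The call of Bcl2l1 in this comparison thus depended on which APAP libraries were in the fit.

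Bcl2l11 was at 2.0, 2.41 and 2.52 FPKM in the AMSC libraries, which overlapped with the APAP libraries (log2 fold change -0.06, 95% confidence interval -0.39 to 0.27, limma adjusted p = 0.843). The values of Bid were 2.93, 3.08 and 2.44 FPKM (log2 fold change 0.19, interval -0.13 to 0.50, limma adjusted p = 0.495). For Bax they were 9.99, 9.81 and 9.63 FPKM (log2 fold change -0.03, interval -0.37 to 0.30, limma adjusted p = 0.923). Those of Bak1 were 3.09, 3.995 and 3.12 FPKM, all above the APAP libraries and below the NC libraries (log2 fold change 0.30, interval -0.01 to 0.61, limma adjusted p = 0.253).

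Pmaip1 held 6, 9 and 6 reads in the AMSC libraries, or 0.143, 0.262 and 0.151 FPKM, all below the APAP libraries, and 2 of the 3 within the range of the NC libraries. The ratio of the AMSC to the APAP mean was 0.315 (exact two-sided permutation test, p = 0.1, the smallest possible), and voom on genes with at least 10 reads gave -1.66 (SE 0.47, adjusted p = 0.0763), which missed the threshold. Ripk3 held 15, 7 and 7 reads, or 0.412, 0.235 and 0.203 FPKM, again all below the APAP libraries. The ratio of means was 0.309 (exact two-sided permutation test, p = 0.1), and voom gave -1.57 (SE 0.53, adjusted p = 0.136). Mlkl was at 0.848, 0.735 and 0.491 FPKM and overlapped with APAP replicate 1 (log2 fold change -0.49, 95% confidence interval -0.94 to -0.05, limma adjusted p = 0.198). Against APAP, the AMSC group also had a lower macrophage marker sum, as given above. Median log2 fold changes of the tested markers in this comparison were -1.30 (macrophage), -1.32 (neutrophil) and -1.51 (erythroid). The medians were -0.75 (sinusoidal endothelial), -0.30 (stellate and stromal) and -0.07 (hepatocyte), so lower values were not particular to macrophages. The part of any of these cells in the values of Ripk3 and Mlkl was not tested.

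**Figure D3:**
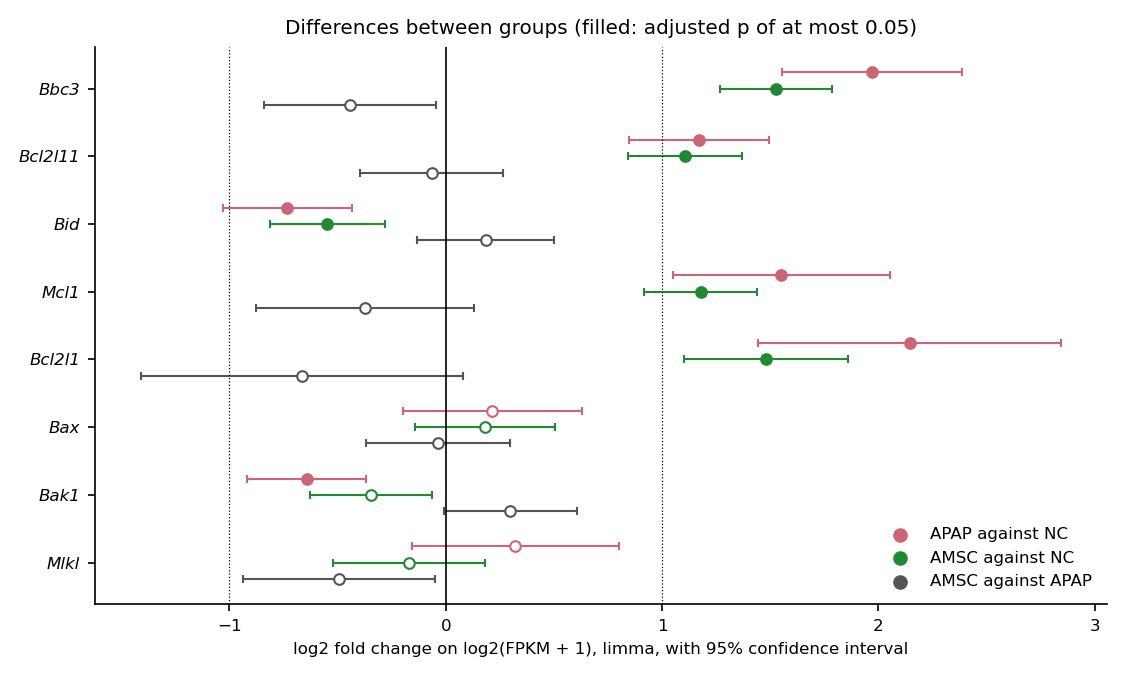
Log2 fold change on log2(FPKM + 1) of the 8 tested members in 3 comparisons, as points with 95% confidence intervals of limma, filled where the adjusted p was at most 0.05; dotted lines mark a log2 fold change of 1 in either direction. Bbc3, Bcl2l11, Mcl1 and Bcl2l1 are filled and to the right of 1 in both comparisons with NC, and no point of AMSC against APAP is filled.

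The comparison of the AMSC group with the NC group shows the members after overdose and AMSCs against normal liver. The DEGs were Bcl2l11, Bbc3, Mcl1 and Bcl2l1, all higher, so 4 of the 8 tested members against 3.92% of all genes, with no lower DEG among the members against 2.09%. As above, Bcl2l11 passed the filter only through the treated groups, and the members were chosen with earlier results known. Bid alone was lower past the adjusted p, against 11.9% of all genes, and the groups did not overlap for 6 of 8 members, against 43.5%. Bbc3 was 3.65 times as high as in the NC group (log2 fold change 1.53, SE 0.11, limma adjusted p = 7.96e-05), and Bcl2l11 4.32 times (1.11, SE 0.11, limma adjusted p = 0.000431). Mcl1 was 2.31 times as high (1.18, SE 0.11, limma adjusted p = 0.000326) and Bcl2l1 3.13 times (1.48, SE 0.16, limma adjusted p = 0.000602). The fold change of Mcl1 was 0.99 when values were scaled to library totals, just under the fold of a DEG.

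Bid had a ratio of means of 0.616 against the NC group (log2 fold change -0.55, SE 0.11, limma adjusted p = 0.0106). Bak1 was lower in all 3 AMSC libraries than in any NC library, and its log2 fold change of -0.34 did not pass the test (limma adjusted p = 0.0738). It passed at -0.44 without AMSC replicate 3 (limma adjusted p = 0.0364) and at -0.50 with values scaled to library totals (limma adjusted p = 0.0186). Bax (log2 fold change 0.18, limma adjusted p = 0.377) and Mlkl (-0.17, limma adjusted p = 0.445) overlapped with the NC group. Pmaip1 (ratio of means 1.48, exact two-sided permutation test p = 0.3) and Ripk3 (ratio 1.15, exact p = 0.7) also overlapped with it.

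Scaling bears on the share of higher calls. Of all genes tested, 494 were higher and 272 lower DEGs in APAP against NC (64.5% higher), and 361 and 472 (43.3% higher) when FPKM was rescaled to library totals, which moved the median of all genes to -0.22. In AMSC against NC, 380 were higher and 203 lower (65.2% higher), and 311 and 343 (47.6%) with totals, at a median of -0.14. With totals, the log2 fold changes of the 4 member DEGs in APAP against NC were 1.04 (Bcl2l11), 1.30 (Mcl1), 1.76 (Bbc3) and 1.91 (Bcl2l1), beside that median of -0.22.

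The members of each role were also summed per library. The sum of the 4 BH3-only members was 7.65 ± 0.13 FPKM (SD, n = 3) in normal liver, 18.0 ± 3.65 after APAP and 14.2 ± 0.33 after APAP and AMSCs, and Bbc3 made up most of it in both treated groups. The pro-survival pair, Mcl1 and Bcl2l1, summed to 32.9 ± 1.72, 114.8 ± 36.2 and 80.9 ± 7.79 FPKM. The ratio of the pro-survival to the BH3-only sum was 4.17, 4.24 and 4.499 in the NC libraries, 5.17, 6.63 and 6.98 in the APAP libraries and 5.88, 5.06 and 6.20 in the AMSC libraries. Every treated library was above every NC library, and the treated groups overlapped. The rise of this ratio depends on counting Bid, the largest part of the BH3-only sum in normal liver. Bid averaged 4.56, 2.36 and 2.81 FPKM in the NC, APAP and AMSC groups, while Bbc3 and Bcl2l11 rose. The ratio therefore does not show a shift of the family toward survival. The ratio of Mcl1 to Bcl2l1 was 3.65, 4.86 and 5.44 in the NC libraries, 3.29, 2.26 and 2.82 in the APAP libraries and 4.24, 3.41 and 2.78 in the AMSC libraries, so it was lower in each APAP library than in the NC libraries. These are sums of transcripts per length and were not tested. The effectors summed to 13.2 ± 2.20, 12.7 ± 1.76 and 13.2 ± 0.54 FPKM in the same order.

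**Figure D4:**
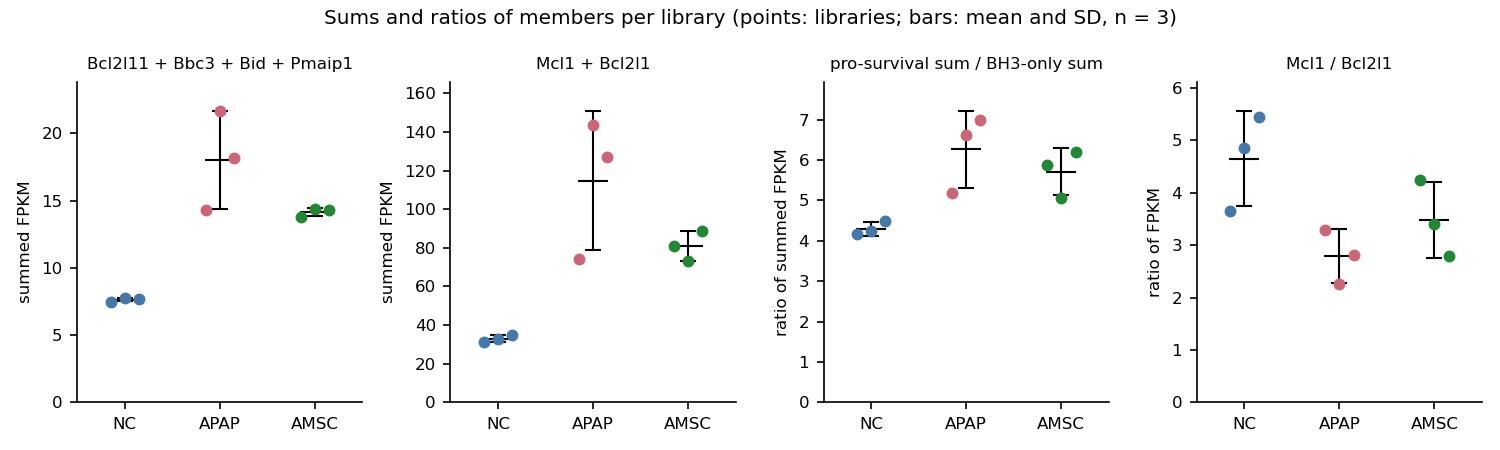
Summed FPKM of the BH3-only and pro-survival members, the ratio of these sums and the ratio of Mcl1 to Bcl2l1 in each library, with the mean and SD of 3 libraries (linear axes from 0). The ratio of pro-survival to BH3-only transcripts is 4.17 to 4.499 in the NC group and 5.06 to 6.98 in the treated libraries. Its rise depends on Bid, which is the largest part of the BH3-only sum in the NC group and is lower in the treated groups.

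The rest of the Bcl2 family was largely low or did not pass the test. Of 6 other pro-survival genes, Bcl2l2 alone passed the filter, and it fell past the adjusted p in both comparisons with NC (log2 fold changes -0.42 and -0.54, limma adjusted p = 0.0334 and 0.00593). The call in APAP against NC was lost with all genes above 0 in the fit, without NC replicate 1, 2 or 3 and without APAP replicate 1 or 3, and that in AMSC against NC was lost under the replicate block. Bcl2, the founding member, averaged 0.0659, 0.167 and 0.0888 FPKM in the NC, APAP and AMSC groups. The near-identical genes Bcl2a1a, Bcl2a1b and Bcl2a1d, which are expressed in leukocytes and can share reads, had group averages of at most 0.137 FPKM in NC livers and at most 0.923 FPKM after APAP. Of 12 other effector, BH3-only or BH3-like genes, 8 were tested and none was a DEG in any comparison, while 1 was in APAP against NC with either form of voom. Of all genes tested, 5.09% were higher and 2.8% lower DEGs in APAP against NC, and 3.92% and 2.09% in AMSC against NC. In AMSC against APAP, 1.96% were DEGs and 3.78% passed the adjusted p. Past the adjusted p were 12.8% higher and 13.1% lower of all genes in APAP against NC, and 14.1% and 11.9% in AMSC against NC. Bok (0.76, limma adjusted p = 0.0424) was higher and Bcl2l12 (-0.58, 0.0159) lower past the adjusted p in APAP against NC, and Bnip3, a mitophagy receptor induced by hypoxia, was higher past it in AMSC against APAP (0.69, limma adjusted p = 0.0343). In AMSC against NC, Bnip3 and Bnip3l were higher and Bcl2l12 lower past the adjusted p. Single libraries decided these calls. Bok and Bcl2l12 in APAP against NC were both lost without NC replicate 1, without NC replicate 2 or without APAP replicate 2, and Bok also without NC replicate 3 or APAP replicate 3. In AMSC against APAP, Bnip3 was lost without APAP replicate 2 or 3 and without each AMSC replicate. The 3 calls in AMSC against NC were lost without NC replicate 2 and under the replicate block. These genes without a DEG call, and such genes in the next 4 paragraphs, were named after their values were seen.

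Of 20 genes that feed or brake the necrosome, 19 were tested and none was a DEG in any comparison. The DEG shares of all genes are given above. With a pseudocount of 0.1 or with voom, 1 to 2 of the 19 were DEGs in APAP against NC. In APAP against NC, Ripk1 (log2 fold change 0.68, limma adjusted p = 0.00551), the kinase upstream of RIPK3, and the ubiquitin ligase gene Peli1 (0.83, 0.00423) rose past the adjusted p, and Fadd (-0.65, 0.0132), the adaptor of caspase-8, fell. None of the 19 passed it in AMSC against APAP, against 3.78% of all genes. In AMSC against NC, Ripk1 and Peli1 rose past it, and Tradd, Fadd and Cflar, which encodes the caspase-8 regulator c-FLIP, fell. In APAP against NC, Ripk1 and Peli1 passed whichever library was left out, and Fadd did not pass without NC replicate 1. Fadd alone of the 5 called in AMSC against NC passed whichever library was left out, and none of the 5 passed under the replicate block. The median log2 fold changes of this list were -0.08, 0.08 and 0.05 in APAP against NC, AMSC against APAP and AMSC against NC. Of all genes tested, 12.8% were higher and 13.1% lower past the adjusted p in APAP against NC, and 14.1% and 11.9% in AMSC against NC.

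Of 11 death ligands and receptors, 5 were tested, and the ligand genes Tnf, Fasl and Tnfsf10 were below the filter. Tnfsf10 averaged 1.17, 0.148 and 0.226 FPKM in the NC, APAP and AMSC groups, with every treated library below every NC library. It missed the filter through its low treated values and was not tested. Tnfrsf1b, which encodes the TNF receptor TNFR2, was a DEG in APAP against NC (7.67 to 18.5 FPKM, log2 fold change 1.16, limma adjusted p = 0.00495). Tnfrsf1a, which encodes the death-domain receptor TNFR1, was a DEG in AMSC against NC (28.0 to 72.5 FPKM, log2 fold change 1.32, limma adjusted p = 0.000808). In all, 3 receptor genes (with Ifngr1) rose past the adjusted p in APAP against NC and 4 (with Fas as well) in AMSC against NC. Of all genes, 12.8% and 14.1% were higher past it in these comparisons. None of the 5 tested genes fell past it. Without NC replicate 1 or 2, Tnfrsf1b alone remained past it in APAP against NC, and Tnfrsf1b and Tnfrsf1a alone in AMSC against NC. Tnfrsf1b was short of the fold of a DEG when values were scaled to library totals. Of 15 genes of the apoptosome, caspases and their inhibitors, 10 were tested. Past the adjusted p, Dffa, which encodes an inhibitor of the apoptotic nuclease, fell in APAP against NC (log2 fold change -0.87, limma adjusted p = 0.00547). Of all genes, 13.1% were lower past it in APAP against NC, and 14.1% were higher and 11.9% lower in AMSC against NC. In AMSC against NC, Casp6 rose (0.58, limma adjusted p = 0.0346) and Xiap, which encodes a caspase inhibitor, fell (-0.60, limma adjusted p = 0.0108) past it. Dffa and Xiap passed whichever library was left out, and Casp6 did not pass without NC replicate 1 or 2 or AMSC replicate 2 or 4. Under the replicate block, Casp6 and Xiap did not pass.

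Most list DEGs were upstream regulators and partners of the members. Of 20 such genes 18 were tested. Of the 18, 5 were higher DEGs in APAP against NC, against 5.09% of all genes, and none was a lower DEG, against 2.8%. Past the adjusted p, 7 rose and 3 fell in each comparison with NC, beside 12.8% higher and 13.1% lower of all genes in APAP against NC and 14.1% and 11.9% in AMSC against NC. Of these 10, 5 remained without NC replicate 2 in APAP against NC. Ddit3, which encodes the stress factor CHOP, averaged 4.47, 83.7 and 105.4 FPKM in the NC, APAP and AMSC groups (log2 fold changes against NC 3.73 and 4.27, limma adjusted p = 0.00142 and 8.35e-07). Myc averaged 4.57, 42.9 and 24.996 FPKM (3.10 and 2.39, limma adjusted p = 0.00336 and 0.00399). Mdm2, a p53 target that encodes its ubiquitin ligase, averaged 4.91, 36.7 and 16.9 FPKM (2.63 and 1.60, limma adjusted p = 0.000233 and 4.84e-05).

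Foxo3, a forkhead factor known to induce Bcl2l11 and Bbc3, averaged 5.22, 21.3 and 27.4 FPKM (log2 fold changes against NC 1.85 and 2.20, limma adjusted p = 0.00114 and 0.000153). The fifth DEG was Atf4 (1.46 and 1.27, limma adjusted p = 0.00307 and 0.00269). Sh3bp5, which encodes SAB, the mitochondrial docking protein of JNK, was a lower DEG in AMSC against NC (-1.01, limma adjusted p = 0.00154); it and Atf4 lie outside the rule for named genes and were chosen after their values were seen. In AMSC against APAP the only DEG of the list was Mdm2, which was lower (log2 fold change -1.04, limma adjusted p = 0.0420). It was no DEG with all genes above 0 in the fit, with values scaled to library totals, without APAP replicate 2 or 3, or without any one AMSC replicate. Trp53 itself, which encodes p53, fell past the adjusted p in APAP against NC (-0.43, limma adjusted p = 0.0291), a call lost without NC replicate 1, 2 or 3 and without APAP replicate 1 or 2. Sh3bp5 stayed past the adjusted p but under the fold of a DEG without NC replicate 2, AMSC replicate 2 or AMSC replicate 4 and under the block.

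Genes whose pattern over the 9 libraries was most like a member DEG were found by the root-mean-square difference of centred log2(FPKM + 1) values. Closest to Mcl1 were Mapkapk2, a kinase gene of the p38 pathway (difference 0.106), and Chic2 (0.171), where the SD of Mcl1 itself was 0.697. Mapkapk2 was also near Bbc3 (0.188), against an SD of 0.862. Tubb6 (0.187) and Rcan1 (0.246) were closest to Bcl2l1, with an SD of 0.963, and Rassf1 (0.127) and Rela (0.133) to Bcl2l11, with an SD of 0.549. Among the members, Bbc3 and Mcl1 were 0.221 apart, Bcl2l11 and Mcl1 0.225, and Bbc3 and Bcl2l1 0.269, while Bbc3 and Bid were 1.17 apart. All values come from the same 9 libraries and describe likeness of pattern only. The pseudocount shrinks the pattern of low genes, so a small difference does not mean a like ratio. Rela averaged 17.0 FPKM in the NC group and 33.2 in the APAP group, while the ratio of these means was 4.63 for Bcl2l11.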

How the data were processed

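RNA-seq values of 9 mouse livers were used, 3 each of the NC, APAP and AMSC groups, and groups were taken from the sample labels. The authors deposited FPKM values per gene with gene lengths and coordinates. The submitters' processing notes name GRCm38 and mm10, and 98.33% of 54409 shared gene identifiers had the same start and end in GENCODE vM21. Aligner, counter and strand setting are not given in the sources used here. FPKM times length came in whole steps (within 0.1 of a step) for 100% of the values above 0 in each library, so whole reads were recovered, and the denominators behind the FPKM were 0.909 to 1.16 times the library totals. The paper's methods used DESeq2 on 2 groups at a time; as the deposited unit is FPKM, limma 3.58.1 (lmFit, eBayes with trend, R 4.3.3) was run on log2(FPKM + 1) with the same thresholds, 2 groups per fit and Benjamini-Hochberg adjustment over all 9699 genes tested. The fits were checked on simulated data. For members below the filter, exact permutation tests were used. Figures were drawn with matplotlib 3.10.9.

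Named genes were all members, up to 4 DEGs with the largest log2 fold change per list and comparison, and the 2 nearest patterns per member DEG; some genes under this rule are not reported here. The members and lists were chosen with earlier results of these data known. Same-numbered libraries correlated in their deviations from the group means in APAP against NC (0.213, 0.160 and 0.378). This was taken as possible pairing, but the reported fits carry no block, so their SE and adjusted p are unpaired. The third pair rests on the number in the description of NC replicate 3, whose title carries the number 1 and another date. Pairing entered only the blocked fit, an alternative, which changed no member's call in APAP against NC. In the other comparisons 2 numbers were shared, with correlations below 0, and were not taken as pairing. Libraries of unlike number correlated there at up to 0.4085 (AMSC replicate 2 with APAP replicate 3). Correlations of this size can thus arise without a shared number. Alternatives were a pseudocount of 0.1, other filters, quantile normalization, a single fit of all libraries, protein-coding genes, no trend, the replicate block, voom on recovered reads and leaving out each library. Voom on genes with at least 10 reads and scaling to library totals were added after seeing the data. Protein sequences were not used here. The paper's methods call the 3 libraries of a group biological replicates.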

Additional observations from a re-analysis of the deposited data

How the results depend on the processing

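Over the 17 alternatives of each comparison with NC, 3 to 6 members were DEGs in APAP against NC and 3 to 4 in AMSC against NC, where 4 were reported in each. The 6 came from voom on genes with at least 10 reads, which adds Pmaip1 and Ripk3. With a filter at a mean of 5 FPKM, fewer members were tested, and 3 passed the adjusted p in both comparisons (6 and 5 reported). Mcl1 in AMSC against NC was 0.99 with totals scaling. In AMSC against APAP, where no member was called, the replicate block, over the 2 shared numbers that do not pair the libraries, gave 1 member DEG (Bcl2l1, -1.21, adjusted p = 0.0102), and leaving out a library gave 0 to 1, the 1 being Bcl2l1 without APAP replicate 1. In AMSC against NC, Bak1 passed the adjusted p without AMSC replicate 3 and with totals scaling, and Bid missed the threshold under the block (adjusted p = 0.327). The block changed no other member's call. The sign of Bax turned with totals scaling to -0.0186 in APAP against NC and 0.0245 in AMSC against APAP, where leaving out a library gave -0.107 to 0.102, and Bcl2l11 in AMSC against APAP spanned -0.175 to 0.00548 in the same way. The causes were not tested.

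DEG counts over all genes moved by more than 1.5 times as follows. In APAP against NC, 766 became 478 with at least 5 FPKM, 1197 with voom and 2075 with voom on genes with at least 10 reads. In AMSC against APAP, 190 became 21 with all genes above 0, 102 with at least 5 FPKM, 335 with the block, 296 and 449 with the forms of voom, and 105, 101, 90 and 94 without APAP replicate 3 and AMSC replicates 2, 3 and 4. In AMSC against NC, 583 became 915 with a pseudocount of 0.1, and 968 and 1499 with voom. Pmaip1 and Ripk3, at 3 to 36 reads per library, are limited by depth, and their calls depended on the test. Over all alternatives, genes past the adjusted p in APAP against NC numbered 0 to 9 for the necrosome list (3 reported), 0 to 3 for the other effector and BH3-only list (2), 1 to 4 for death ligands and receptors (3) and 5 to 11 for the upstream list (10). With a filter at 5 FPKM many list genes were not tested.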
